A study of Rattus norvegicus with 2 samples.

Results

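Mitochondrial ribosomal proteins are the protein subunits of the ribosome that works inside mitochondria. They were taken here as every gene symbol in the deposited count tables that begins, with case, with Mrpl or Mrps followed by a digit, leaving out pseudogene names. The rule gave 76 of the 42172 genes, 46 with a large subunit (Mrpl) symbol and 30 with a small subunit (Mrps) symbol. Mrps17-ps1 was left out as a pseudogene, and mrpl9, mrpl11 and mrpl24, written in lower case in the tables, did not match. Expression in cells of the lung was followed in 2 libraries, 1 from control rats and 1 from rats exposed to a gas explosion, all kept free of specific pathogens. Both libraries came from enzyme-dissociated lung after red cell lysis and removal of dead cells, and were made with 10x Genomics Chromium 3′ chemistry. The labels give no strain, sex, age, time after the explosion or number of animals per library. Since each group has 1 library, no difference below could be set against replicates, and none was tested.

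The mitochondrial ribosome translates the few proteins that mitochondrial DNA encodes, all of them subunits of the respiratory chain or the ATP synthase. Its ribosomal RNAs come from mitochondrial DNA, whereas all of its proteins are encoded in the nucleus, made in the cytosol and imported. It carries bacterial-type proteins together with many proteins that bacterial ribosomes lack, and cells with a high oxidative demand, such as ciliated airway cells, rely on it to build their respiratory chain.

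The libraries stood far apart in depth. The control library held 21117 barcodes with a median of 4917 unique molecular identifiers (UMIs, 1 per captured transcript), and the explosion library 12642 barcodes with a median of 538.5. After cell filters and doublet removal, 19231 control cells (median 4677 UMIs) and 11845 explosion cells (median 532 UMIs) remained, and 5580 of the kept explosion cells but 0 control cells had fewer than 500 UMIs. The libraries shared 85 barcodes, 0.403% of the control and 0.672% of the explosion barcodes. UMIs were summed per library and class of cells and given as CPM, counts scaled by the total of that sum. Levels were not divided by gene length, since the chemistry is aimed at the 3′ end of transcripts. The part of gene length in the ratios was not tested. Differences are CPM ratios, explosion over control, with exact 95% intervals in parentheses that cover counting error only. A gene was called lower or higher when its log2 ratio, with 0.5 counts added to each sum, was past 2-fold, and it was compared only where at least 10 UMIs were expected in the smaller sum.

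Cells fell into 37 clusters, named from marker genes except clusters 23 and 26. The 8 classes with at least 200 cells in each library sat mainly in different clusters in the libraries. Most smaller classes sat in a cluster shared by both. Macrophage-like cells lay mainly in clusters 0 and 1 in the control and in cluster 3 in the explosion library. Monocyte-like cells lay mainly in cluster 10 in the control and in clusters 2 and 11 after the explosion. The main control and explosion clusters were 4 and 5 among T-like cells. They were 12 and 13 among B-like cells, 19 and 15 among NK-like cells, and 8 and 9 among mesothelial-like cells. Secretory-like cells lay in clusters 6, 7 and 16 against 14, and ciliated-like cells in 17 and 21 against 20. Single genes were compared in the 8 classes that reached 200 cells in each library, and summed levels in the 13 that reached 50. The dendritic-like cluster was led by MHC class II genes with 0 of its own markers among its top 10, and the mast and basophil-like cluster also held Il1rl1 and Gata3. Cluster 14, with 611 of the 719 explosion secretory-like cells, had 1 secretory and 1 type 2 alveolar marker among its top 10. Clusters 6, 7 and 16 had 4, 6 and 4 secretory markers there. All class names are reconstructions from markers.

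Over all kept cells, mitoribosomal protein transcripts made up a smaller part of the RNA in the explosion library. The 76 members together reached 4478 CPM (534382 UMIs) in the control library and 2443 CPM (20421 UMIs) in the explosion library, which was 1.83-fold lower (1.81 to 1.86), or a log2 ratio of -0.87. Of the 73 members that could be compared, 26 were lower, 3 were higher and 44 lay between. Among all 15028 genes compared in the same way, 5.86% were lower and 51.7% were higher. The median member had a log2 ratio of -0.75, against 1.05 for the median gene, and 71 of the 73 members lay below the median gene. Mrps21l (33 and 6 UMIs, control and explosion), Mrpl53 (40 and 4) and Mrpl28 (35 and 0) held too few UMIs to compare. The 3 symbols written in lower case lay on the same side, with log2 ratios of -0.14 for mrpl9, -0.98 for mrpl11 and -1.01 for mrpl24.

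**Figure D1:**
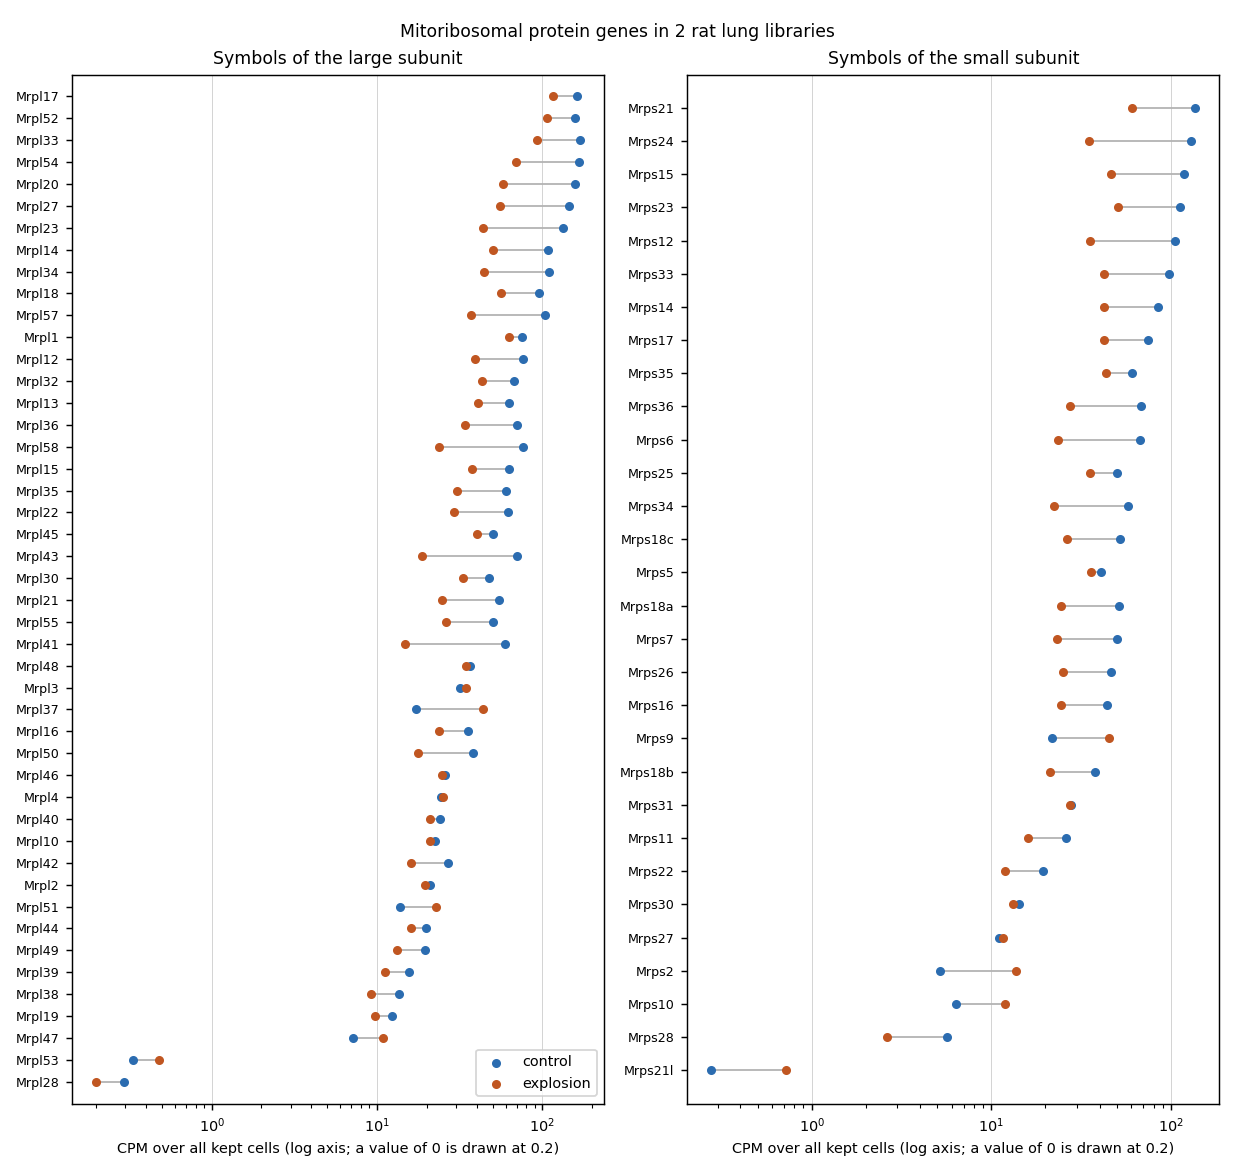
CPM of each of the 76 members over all kept cells of the control (blue) and explosion (orange) libraries, large subunit symbols on the left and small subunit symbols on the right; the axis is logarithmic and the explosion value of Mrpl28, which is 0, is drawn at 0.2. Most explosion points lie to the left of the control points, and Mrpl37, Mrps9 and Mrps2 lie to the right.

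The CPM scale itself differed between the libraries, since the median gene lay at a log2 ratio of 1.05. When 4 abundant transcripts (Scgb1a1, Rn45s, mt-Rnr1, mt-Rnr2), the hemoglobins and the cytosolic ribosomal proteins were left out of the totals, all log2 ratios moved by -0.39. The members together stood at -1.26 on that scale and at -1.92 relative to the median gene, so their direction held under each scaling. The same held within clusters. In the 23 of 37 clusters with at least 50 member UMIs in both libraries, the summed CPM was lower in the explosion library in 23, with intervals apart in 22 and ratios from 0.407 to 0.901. In cluster 3, macrophage-like, median depth was 1138 UMIs in its 45 control cells and 1156 in its 1723 explosion cells, while mean depth was 2026 and 1174 UMIs. Its summed level was 5450 CPM (4981 to 5951) in the control and 3072 CPM (2996 to 3149) in the explosion cells. That cluster was picked out after its values were seen.

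Both subunits were lower together. The 46 large subunit members summed to 2859 CPM in the control and 1603 CPM in the explosion library, a log2 ratio of -0.83 (-0.86 to -0.81), with 14 lower and 1 higher of 44 compared. The 30 small subunit members summed to 1619 and 840 CPM, a log2 ratio of -0.95 (-0.98 to -0.91), with 12 lower and 2 higher of 29. Large subunit proteins numbered up to 36, mostly those with bacterial relatives, summed to a log2 ratio of -0.86, and those numbered from 37, mostly specific to mitochondria, to -0.78. The control library held 1.77 large subunit UMIs (1.76 to 1.78) for each small subunit UMI and the explosion library 1.91 (1.85 to 1.96). By class, with subunits taken by symbol, the intervals of the libraries were apart only in macrophage-like and mesothelial-like cells, and overlapped in the other 11. The ratios were 1.83 in the control and 2.06 in the explosion library in macrophage-like cells, and 1.76 and 2.02 in mesothelial-like cells. Mrps18a and Mrps30 carry small subunit names but sit in the large subunit. Counting them there, and leaving Mrps36 out of both subunits, gave 1.97 and 2.12 over all kept cells. With that grouping the intervals were apart in macrophage-like, mesothelial-like and also NK-like cells, the last at 1.65 in the control and 2.06 in the explosion library.

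The most abundant large subunit transcripts were lower in the explosion library by unequal amounts. Mrpl17, a protein with a bacterial counterpart, stood at 161 CPM in the control and 116 CPM in the explosion library, 1.39-fold lower (1.30 to 1.48). Mrpl52 stood at 158 and 107 CPM, 1.48-fold lower (1.38 to 1.58), and Mrpl33 at 169 and 92.4 CPM, 1.83-fold lower (1.70 to 1.97). Mrpl17 and Mrpl52 thus differed by less than 2-fold, in each of the 8 classes as well, and Mrpl17 in secretory-like cells had a log2 ratio of 0.03. By contrast, Mrpl20, near the core of the subunit, stood at 159 and 57.8 CPM, 2.74-fold lower (2.51 to 3.01). Mrpl27, which reaches towards the peptidyl transferase centre, stood at 145 and 55.8 CPM, 2.59-fold lower (2.36 to 2.85). Mrpl23, at the exit of the nascent peptide tunnel, stood at 134 and 43.9 CPM, 3.04-fold lower (2.74 to 3.39). Mrpl14, at the face that meets the small subunit, stood at 109 and 50.3 CPM, 2.16-fold lower (1.96 to 2.39).

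Among the abundant small subunit transcripts the order of the ratios was also uneven. Mrps21 stood at 136 CPM in the control and 60.3 CPM in the explosion library, 2.26-fold lower (2.07 to 2.47). Mrps24, the counterpart of bacterial S3 at the messenger RNA entry, stood at 130 and 35.1 CPM, 3.71-fold lower (3.30 to 4.17). Mrps15 stood at 118 and 46.1 CPM, 2.56-fold lower (2.31 to 2.84). All of these were past 2-fold with intervals that excluded it. Mrps12, the decoding centre protein, stood at 106 and 35.2 CPM, 3.00-fold lower (2.67 to 3.38). Mrps23 stood at 112 and 50.6 CPM, with a log2 ratio of -1.14, and Mrps33 at 96.8 and 42.2 CPM, with a log2 ratio of -1.19. Mrps14 stood at the boundary, at 84.7 and 42.4 CPM with a log2 ratio of -0.998, and was not called. Mrps17, at 74.0 and 42.1 CPM, did not reach it with a log2 ratio of -0.81.

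The lowest ratios of the family belonged to Mrpl41, a large subunit protein specific to mitochondria, at 59.2 CPM in the control and 14.7 CPM in the explosion library, 4.03-fold lower (3.37 to 4.85). Mrpl43, also specific to mitochondria, followed at 70.6 and 18.7 CPM, 3.78-fold lower (3.23 to 4.46). Mrpl58, a peptidyl-tRNA hydrolase built into the large subunit that can free stalled ribosomes, stood at 76.6 and 23.8 CPM, 3.22-fold lower (2.80 to 3.72). Mrpl43, Mrps24 and Mrpl58 were past 2-fold in 8 of 8 classes. Mrpl43 went from 94.0 to 30.7 CPM in macrophage-like, from 84.8 to 16.4 CPM in monocyte-like and from 52.6 to 5.48 CPM in mesothelial-like cells, the last from 184 and 5 UMIs. Mrpl58 went from 80.0 to 9.81 CPM in T-like cells (211 and 6 UMIs) and from 145 to 41.3 CPM in ciliated-like cells. Mrpl41 was past 2-fold in 7 of 8 classes and stood at 68.1 and 33.1 CPM in NK-like cells, where its log2 ratio was -0.99 after 0.5 counts were added to each sum.

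The stalk proteins, which recruit translation factors to the large subunit, did not move alike. Mrpl10, the stalk base, had 22.4 CPM in the control and 20.9 CPM in the explosion library, 1.07-fold lower (0.919 to 1.26), an interval that includes no difference. Mrpl12, which binds it in several copies, had 9070 and 328 UMIs, 1.94-fold lower (1.73 to 2.17). Mrpl54, at the stalk base, had 166 and 69.0 CPM, 2.40-fold lower (2.21 to 2.61). Mrpl53 held too few UMIs to compare, and mrpl11 is given above. The 3 Mrps18 paralogs, which occupy different places in the ribosome, had log2 ratios close to each other: -1.06 for Mrps18a, -0.83 for Mrps18b and -0.99 for Mrps18c. Mrps36, since assigned to the 2-oxoglutarate dehydrogenase complex of the citric acid cycle instead of the ribosome, stood at 67.6 and 27.5 CPM, a log2 ratio of -1.29.

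On the CPM scale 3 members were higher, against a background in which 51.7% of all genes were. Mrps2, at the messenger RNA exit of the small subunit, had 5.18 CPM in the control and 13.8 CPM in the explosion library, a ratio of 2.66 (2.16 to 3.25). Mrpl37, specific to mitochondria, had 17.1 and 43.9 CPM, a ratio of 2.56 (2.28 to 2.86), and was past 2-fold in 5 of the 6 classes where it could be compared. In some of these classes Mrpl37 passed the limit of 10 expected UMIs only through its explosion level. The count of classes is therefore no support for a difference. Mrps9 had 21.9 and 45.1 CPM, a ratio of 2.06 (1.85 to 2.30). Relative to the median gene these log2 ratios shrank to 0.37 for Mrps2 and 0.31 for Mrpl37, and that of Mrps9 came to -0.00. The next in order also turned below the median gene: Mrps10 went from 0.91 to -0.13, Mrpl51 from 0.73 to -0.32 and Mrpl47 from 0.61 to -0.44.

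Neighbouring genes touch several of these members. In the RefSeq annotation of assembly GRCr8, 19 of the 75 members found there overlap another gene. Mrpl37 overlaps Ssbp3, which had 2585 control and 507 explosion UMIs and a log2 ratio of 1.49. Mrps2 overlaps Pierce1 and Mrpl47 overlaps both Actl6a (log2 ratio 0.43) and Ndufb5 (-1.94), while Mrps9 overlaps only LOC120094930, which had 0 UMIs. Among the lowest members, Mrpl43 overlaps Twnk, the mitochondrial DNA helicase, which lay on the other side at a log2 ratio of 0.95. How reads were assigned where genes overlap is not known from the labels, and its part in these ratios was not tested.

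The members' median ratio was lower in bands of higher level. At a mean of 5 to 20 CPM, the 12 members had a median log2 ratio of -0.21 with 0 lower, against 1.07 for 4742 genes of that level, of which 3.82% were lower. From 20 to 50 CPM the 33 members had -0.74 with 10 lower, against 0.99 for 3549 genes, of which 4.73% were lower. From 50 to 150 CPM the 27 members had -1.11 with 15 lower, against 0.95 for 2489 genes, of which 7.31% were lower. The members' median lay below that of all genes of their level in each band, although Mrps2, Mrpl37 and Mrps9 themselves lay above it.

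Across cell classes the direction was shared, and its size differed. The summed level was lower in the explosion library in each of the 13 classes. Macrophage-like cells, with the highest level among these 13 in both libraries, had 5850 CPM in the control and 3042 CPM in the explosion library, 1.92-fold lower (1.88 to 1.97). Monocyte-like cells had 4681 and 2130 CPM, 2.198-fold lower (2.11 to 2.29). Mesothelial-like cells, from the covering of the lung, had 5582 and 2434 CPM, 2.29-fold lower (2.19 to 2.40). Blood endothelial-like cells had 5153 and 2100 CPM, 2.45-fold lower (2.14 to 2.82), from 1862 and 241 member UMIs. T-like cells had 4558 and 2298 CPM, B-like cells 4304 and 2158 CPM, and ciliated-like cells 4202 and 2153 CPM, with ratios between 1.95-fold and 1.99-fold lower. NK-like cells had 4163 and 2685 CPM, 1.55-fold lower (1.44 to 1.67).

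Secretory-like cells, named from markers of club and mucous airway cells, stood apart at 2312 CPM in the control and 1792 CPM in the explosion library, 1.29-fold lower (1.23 to 1.35). Without the abundant transcripts in the totals their log2 ratio went from -0.37 to -1.10, and relative to the class's median gene, at 1.52, to -1.89. The smaller classes were close to the others, with log2 ratios of -0.91 in mast and basophil-like, -0.97 in dendritic-like, -1.01 in fibroblast-like and -1.06 in type 2 alveolar-like cells. Median depth was lower in the explosion library in each of the 8 larger classes, with 5798 and 1122 UMIs in macrophage-like, 11361.5 and 1387 in secretory-like, 1619.5 and 565 in NK-like and 2132 and 792.5 in mesothelial-like cells. The part of depth in the size of the class ratios was not tested.

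**Figure D2:**
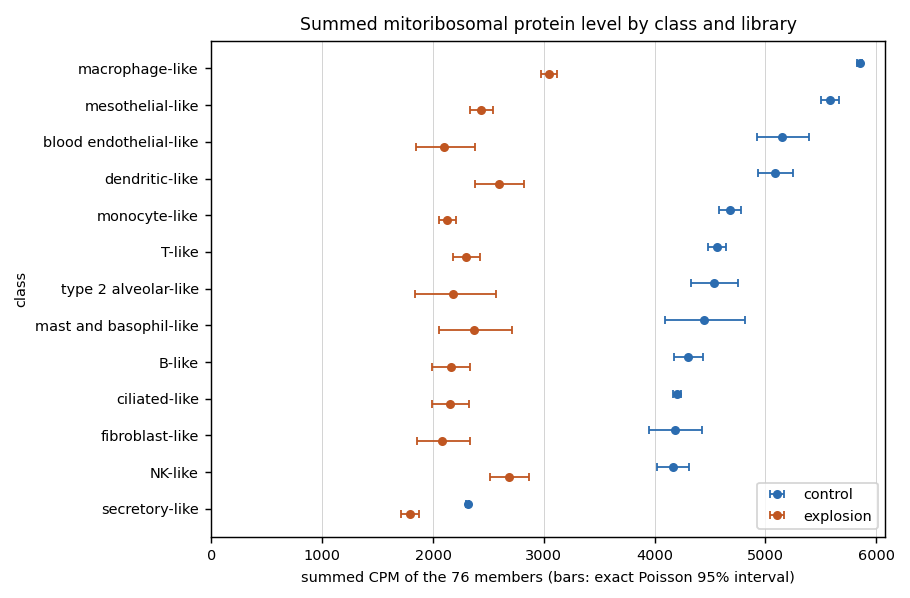
Summed CPM of the 76 members in 13 classes of the control (blue) and explosion (orange) libraries; bars are exact Poisson 95% intervals. Every explosion point lies to the left of its control point, with the smallest gap in secretory-like cells, at 2312 and 1792 CPM.

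Type 1 alveolar-like cells, left out of the 13 for their 7 explosion cells, had 8903 CPM (8488 to 9332) in the control library, and the unnamed cycling cluster 23 had 6455 CPM. Among the 13 classes, macrophage-like cells were highest in the control library, followed by mesothelial-like cells, and their intervals did not overlap. Blood endothelial-like and dendritic-like cells came next, at 5153 and 5089 CPM, with overlapping intervals. From monocyte-like down to NK-like cells, 4681 to 4163 CPM, each class overlapped its neighbour, and secretory-like cells lay far below. In the explosion library macrophage-like cells were again highest without overlap, NK-like and dendritic-like cells followed at 2685 and 2593 CPM, and all later neighbours down to fibroblast-like cells at 2083 CPM overlapped. Of the 8 larger classes, the highest exceeded the lowest by 2.53 times in the control and 1.70 times in the explosion library. Without the abundant transcripts in the totals these became 1.33 and 1.43 times, with ciliated-like cells highest in the control and secretory-like cells highest in the explosion library.

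Gene by gene, the members followed the same direction in most classes. In macrophage-like cells 26 of 72 members were lower and 2 higher, where 7.51% and 33.4% of 10131 genes were. In monocyte-like cells 35 of 71 were lower and 2 higher, against 9.18% and 25.4% of all genes, and in mesothelial-like cells 34 of 68 and 2, against 11.4% and 30.2%. T-like cells had 28 of 63 lower and 1 higher, against 7.64% and 35.5%, and B-like cells 23 of 40 and 0, against 9.41% and 29.6%. NK-like cells had 14 of 47 lower and 1 higher, against 7.04% and 25.2%, and ciliated-like cells 21 of 42 and 2, against 9.08% and 49.2%. In secretory-like cells 9 of 62 members were lower and 3 higher, against 2.75% and 65.8% of all genes. The secretory-like counts changed with the scaling, to 34 of 67 lower without abundant genes, against 10.8% of all genes, and to 55 of 62 relative to the median gene, against 23.3%. Of the 61 members that could be compared in at least 5 classes, 40 had a ratio below 1 in each of them, 21 were past 2-fold lower in at least 5 classes, and 5 were higher in any class. Those 5 were Mrpl37, Mrps9, Mrpl51, Mrpl46 and Mrps31. A member that is high in the explosion library can pass the limit on expected UMIs through that level alone. Counts over classes were not taken for all genes, so these describe the members without a background.

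**Figure D3:**
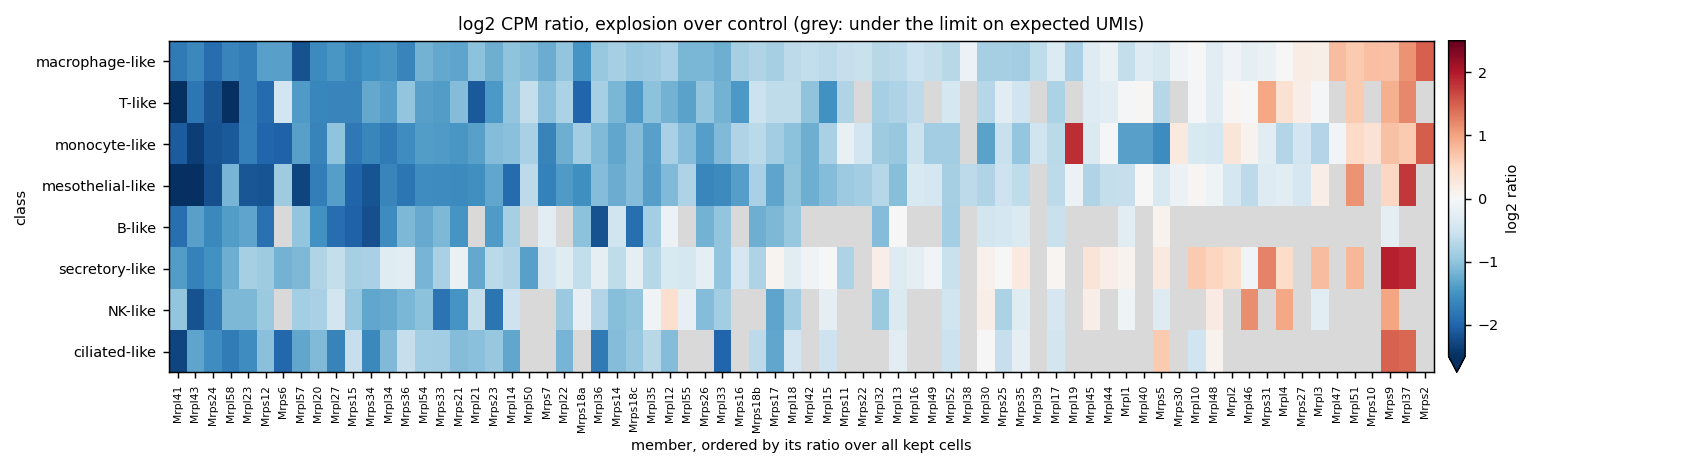
log2 CPM ratio, explosion over control, in 8 classes (rows) of each member that could be compared in any of them (columns). Columns are ordered by the ratio over all kept cells. Grey marks too few UMIs, and the colour scale ends at -2.5 although the lowest value, Mrpl43 in mesothelial-like cells, is -3.13. Blue runs through all 8 rows on the left, and the red columns on the right include Mrps9 and Mrpl37.

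Among members with at least 10 UMIs in each of the 8 control classes, 4 differed most in level between them. Mrpl1, which lines the exit path of transfer RNA, reached 334 CPM in monocyte-like cells and 20.3 CPM in secretory-like cells of the control library. Cluster 10, the nonclassical type with Treml4, held 395 CPM. In the explosion library monocyte-like cells were again the highest of the 8 classes for Mrpl1, at 130 CPM, and secretory-like cells the lowest, at 21.1 CPM. Cluster 2, led by Mal, Pou2f2 and Treml4, then held 159 CPM. Mrpl1 was therefore 2.57-fold lower (2.19 to 3.03) in monocyte-like cells, while in secretory-like cells its log2 ratio was 0.09.

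Mrps6, the counterpart of bacterial S6, reached 292 CPM in ciliated-like cells of the control library and 14.1 CPM in NK-like cells. Cluster 21, 407 control ciliated-like cells, held 698 CPM, and cluster 17, 498 control cells, held 209 CPM. Outside the 8 classes, neutrophil-like (178 CPM) and dendritic-like (146 CPM) control cells were also high, ahead of monocyte-like cells at 137 CPM. After the explosion ciliated-like cells held 73.0 CPM from 23 UMIs, 4.00-fold lower (2.66 to 6.32), and dendritic-like cells 99.4 CPM from 21 UMIs. Slc5a3, an inositol transporter whose gene overlaps Mrps6, went the other way in ciliated-like cells, from 48.5 to 191 CPM. The assignment of reads between this pair was not tested.

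Mrps15 was highest in T-like control cells, at 289 CPM, and lowest in secretory-like cells, at 57.7 CPM. NK-like control cells held 187 CPM. In the explosion library NK-like and T-like cells again led the 8 classes, at 96.3 and 91.6 CPM, and the ratio in T-like cells was 3.16-fold lower (2.41 to 4.22). Mrpl33 reached 397 CPM in mesothelial-like, 331 CPM in monocyte-like and 80.7 CPM in secretory-like control cells. Monocyte-like and mesothelial-like cells were again the highest of the 8 in the explosion library for Mrpl33, at 155 and 132 CPM. Type 1 alveolar-like control cells, outside the 8 classes, held 709 CPM of Mrpl33 from 138 UMIs.

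**Figure D4:**
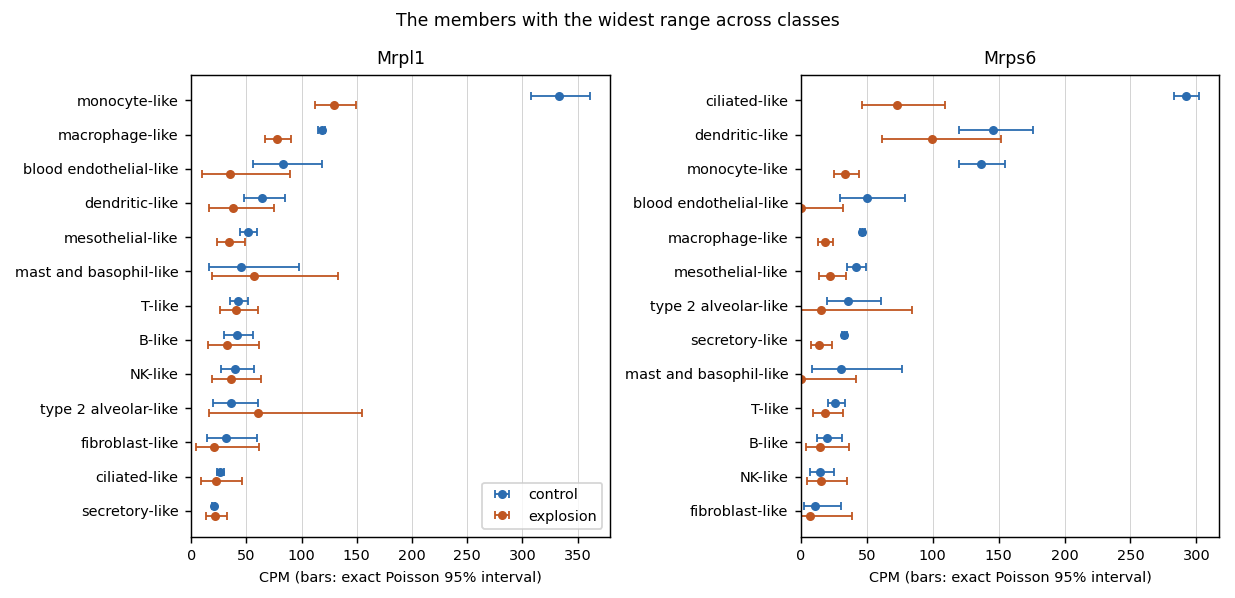
CPM of Mrpl1 and Mrps6 in 13 classes of the control (blue) and explosion (orange) libraries, with exact Poisson 95% intervals as bars. Mrpl1 is highest in monocyte-like cells, at 334 CPM, and Mrps6 in ciliated-like cells, at 292 CPM, of the control library.

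Promoters of the family were compared with those of all annotated genes, whether or not they were measured in these cells. Any link between promoters and the levels above was not tested. Nuclear respiratory factor 1, ETS family factors such as GABP (also called NRF2) and YY1 are known regulators of nuclear genes for mitochondrial proteins. RefSeq promoters of assembly GRCr8, 250 bases before to 50 bases after the start, were found for 60 of the 76 members and searched on both strands. The NRF1 word, the 10 letters in capitals in the first promoter below, occurred in 4 members (6.67%), against 0.932% of all 27457 promoters. The ETS word CCGGAAG occurred in 21 (35.0%) against 9.22%, and the YY1 word AAGATGGCG in 9 (15%) against 1.93%. The last 2 can overlap by their shared AAG. At least 1 of the 3 words occurred in 29 members (48.3%), against 11.5% of all promoters, and median GC was 56.0% in the members and 52.3% in all. A match to such letters is a description and shows no binding. For members whose levels are described above, 100 bases upstream of the start are given 5′ to 3′ along the gene, with the matched words in capitals, to show the letters that recur.
Mrpl17 (NRF1 word, chr1:169575701-169575800, minus strand): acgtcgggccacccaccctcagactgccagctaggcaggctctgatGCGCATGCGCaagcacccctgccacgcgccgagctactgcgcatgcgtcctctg
Mrps18b (NRF1 word, chr20:2842906-2843005, plus strand): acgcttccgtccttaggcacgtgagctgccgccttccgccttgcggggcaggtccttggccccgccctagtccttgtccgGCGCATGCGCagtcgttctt
Mrpl23 (ETS word, chr1:207116816-207116915, plus strand): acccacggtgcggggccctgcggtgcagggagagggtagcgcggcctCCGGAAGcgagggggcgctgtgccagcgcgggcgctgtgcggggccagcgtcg
Mrpl27 (ETS word, chr10:80092237-80092336, plus strand): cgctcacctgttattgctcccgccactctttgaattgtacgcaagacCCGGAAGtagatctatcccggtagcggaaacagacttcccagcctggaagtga
Mrpl33 (ETS word, chr6:30553988-30554087, minus strand): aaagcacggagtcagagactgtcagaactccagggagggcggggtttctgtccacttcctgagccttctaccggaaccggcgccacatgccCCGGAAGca
Mrpl58 (ETS word, chr10:101145242-101145341, plus strand): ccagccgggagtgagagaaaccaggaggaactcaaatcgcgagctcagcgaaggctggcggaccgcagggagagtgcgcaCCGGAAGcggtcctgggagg
Mrps18a (ETS word, chr9:22367381-22367480, minus strand): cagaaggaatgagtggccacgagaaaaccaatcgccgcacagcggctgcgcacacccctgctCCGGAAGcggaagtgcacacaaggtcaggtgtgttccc

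Mrpl23 and Mrpl58, with the ETS word, were more than 3-fold lower, while Mrpl33, with the same word, was 1.83-fold lower, and Mrpl17, with the NRF1 word, 1.39-fold lower. Members also share their promoters with other genes more often: 15 of 60 (25%) have a gene on the other strand that starts within 500 bases and runs the other way, against 8.79% of all promoters. Mrpl46 and Mrps11 form such a pair with each other, 234 bases apart. Of 15 partner genes, 2 were lower and 6 higher, where 5.86% and 51.7% of all genes were. Their median log2 ratio was 0.14, between -0.53 for the members beside them and 1.05 for the median gene. Mrpl27, at -1.37, starts 44 bases from Eme1, a DNA repair nuclease subunit, at 1.90. Mrpl47, at 0.61, starts 244 bases from Ndufb5, a complex I subunit, at -1.94.

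Genes that act with the mitochondrial ribosome divided into groups with different ratios, and their counts stand beside 5.86% of all genes lower and 51.7% higher. The 5 subunits that carry other names summed to a log2 ratio of -0.72, with 3 lower and 1 higher. Gadd45gip1, of the large subunit, had 93.1 CPM in the control and 36.1 CPM in the explosion library, and Aurkaip1, of the small subunit, 124 and 56.4 CPM. Dap3, a GTP-binding protein of the small subunit, had 31.1 and 37.8 CPM, and Ptcd3, a small subunit protein with RNA-binding repeats, 14.1 and 38.4 CPM. The nuclear genes of the respiratory chain, a list that here also holds those of the ATP synthase, summed to -1.06. Of its 88 genes 79 were compared, with 51 lower and 0 higher. The cytosolic ribosomal proteins summed to -0.91, with 35 lower and 5 higher of 87.

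Factors that run or build the mitochondrial ribosome did not share the negative log2 ratios of its subunits on the CPM scale, although over all kept cells all but the ribosomal RNAs turned below 0 relative to the median gene. Without abundant genes in the totals, translation factors (-0.08), assembly factors (-0.28) and mitochondrial DNA genes (-0.04) also turned below 0, whereas synthetases (0.40) and regulators (0.40) did not. The share of genes higher was below that of all genes in each of these lists except the regulators and the rRNAs. Translation factors summed to 0.31 (-0.74 relative to the median gene), with 0 lower and 2 higher of 14. The elongation factors Tufm and Tsfm had log2 ratios of -0.28 and -0.37, the recycling factor Gfm2 1.47, and Letm1, an ion carrier of the inner membrane, 1.63. Mitochondrial aminoacyl-tRNA synthetases summed to 0.79 (-0.26), with 0 lower and 7 higher of 15. Their highest members were Vars2 at 2.15 and Hars2 at 2.10, and their lowest Yars2 at -0.59 and Cars2 at -0.04. Relative to the median gene of the class the synthetases stayed above 0 in 4 of the 8 classes, at 0.47 in NK-like, 0.11 in mesothelial-like, 0.03 in T-like and 0.01 in monocyte-like cells.

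Assembly and rRNA modification factors summed to 0.11 (-0.94 relative to the median gene), with 1 lower and 5 higher of 25. Malsu1, which binds the large subunit during assembly, was the lower gene, at 36.4 CPM in the control and 9.57 CPM in the explosion library, and Mpv17l2, also an assembly factor, had a log2 ratio of -0.50. The rRNA methyltransferases Tfb1m and Mrm1 lay at the other end, at 2.02 and 1.82. Genes of mitochondrial DNA maintenance and transcription summed to 0.35 (-0.70), with 0 lower and 3 higher of 13. They ran from Ssbp1, the single-stranded DNA binding protein, at -0.70 and Tefm at -0.63 to Mgme1 at 1.25 and Lrpprc, which stabilises mitochondrial messenger RNA, at 1.27. Regulators of mitochondrial gene expression summed to 0.79 (-0.25), with 0 lower and 7 higher of 9. Nrf1 was at 2.00 and the coactivator Ppargc1b at 1.85, and Yy1 at 0.03 and Esrra at 0.21. Relative to the class's median gene the regulators stayed above 0 in T-like (0.04) and secretory-like cells (0.05).

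The mitochondrial ribosomal RNAs themselves were higher. The small and large rRNAs, mt-Rnr1 and mt-Rnr2, together had 6898 CPM in the control and 35415 CPM in the explosion library, a log2 ratio of 2.36 and of 1.31 relative to the median gene. The control library held 1.54 of their UMIs for each mitoribosomal protein UMI (1.54 to 1.55), and the explosion library 14.5 (14.3 to 14.7). This ratio was higher in the explosion library in each of the 13 classes, from 1.12 to 9.52 in macrophage-like cells and from 3.18 to 23.3 in T-like cells. The ratio compares captured UMIs and is no stoichiometry. The 13 protein-coding genes of mitochondrial DNA were listed at 0 UMIs in both libraries, so the messages this ribosome translates could not be followed. Their symbols also lack the mt- prefix by which the cell filter counted mitochondrial UMIs, a prefix that the rRNAs carry.

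Relative to the respiratory chain the members kept a narrow range. In the control library there were 21.9 mitoribosomal protein UMIs (21.8 to 21.9) for every 100 UMIs of nuclear respiratory chain genes, ATP synthase included. The range over the 13 classes was 20.4 to 24.8. In the explosion library there were 24.9 (24.5 to 25.3), with a range of 23.3 to 29.9. The ratio was higher in the explosion library in each of the 13 classes, with intervals apart in 6, and stood at 23.1 and 23.9 in monocyte-like and 20.4 and 24.9 in secretory-like cells. For every 100 UMIs of cytosolic ribosomal proteins there were 4.07 in the control and 4.17 in the explosion library over all kept cells. Within macrophage-like cells these were 4.72 and 6.57, and within T-like cells 1.39 and 1.80.

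**Figure D5:**
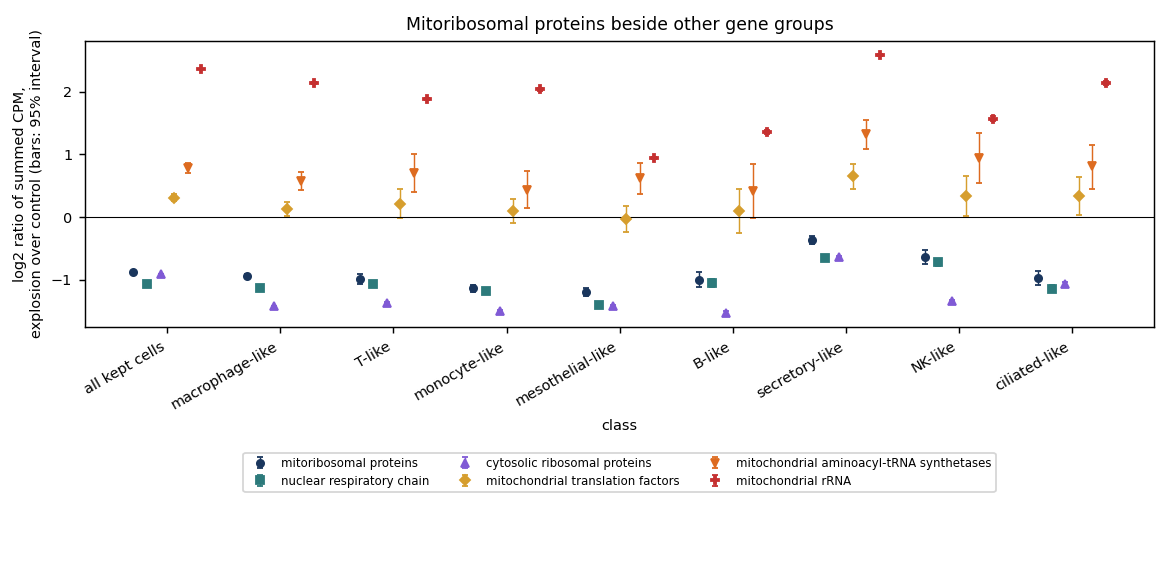
log2 ratio of summed CPM, explosion over control, of the mitoribosomal proteins and 5 other gene groups over all kept cells and in 8 classes; bars are exact 95% intervals. The mitoribosomal, respiratory chain and cytosolic ribosomal protein groups lie below 0 in every column, at -0.87, -1.06 and -0.91 over all kept cells, and the mitochondrial rRNAs lie above 0, at 2.36.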

How the data were processed

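Single-cell libraries of lung from control and exposed rats, 1 per group, were read from whole-number UMI count tables, deposited by the authors without normalization. Cellranger 7.1.0 is named per the file headers, and per the submitters' processing notes with bcl2fastq 2.20 and Cell Ranger 6.1.1. The notes also name the genome builds mRatBN7.2 and rn6 without saying which was used for counting, and no label or header names the gene annotation.

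Barcodes with under 200 genes (21 control, 192 explosion) or over 25% mitochondrial UMIs (16 and 22) were removed, then Scrublet doublets (scanpy 1.11.5; 1853, 8.79%, and 597, 4.80%). Cells of both libraries were clustered together without batch integration (2000 variable genes in all, ranked within each library and merged, 30 components, 15 neighbours, Leiden at resolution 1, python-igraph 0.11.9). Clusters were named on 3 or more detected markers, and cycling and fibroblast/smooth muscle clusters stayed unnamed. UMIs were summed per library and class. Ratios have exact conditional Poisson intervals from scipy 1.17.1, and log2 ratios had 0.5 counts added to each sum. Only the ratio calls and intervals were checked on simulated counts, for genes with at least 30 expected UMIs over all kept cells and in macrophage-like cells. The cell filters, doublet calls, clustering and class names were not checked in this way.

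The rule for named genes took the 8 most abundant members of each subunit, the 6 highest and 6 lowest ratios, the 4 members most uneven between control classes (with at least 10 UMIs in each), every member of 5 role groups, and the 2 highest and 2 lowest genes of each further list. Slc5a3, overlapping and paired genes, and the promoters printed were picked with their values in view. The members and lists were chosen with earlier results of these data known. Alternatives changed the scaling, the low-count limit, the fold, the cell filters, doublets, cell weighting, cluster resolution and the place of Mrps18a and Mrps30. The last also left out Mrps36. The sequences come from RefSeq tables of GRCr8, a build other than those named, and no coordinate was taken from the counts.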

Additional observations from a re-analysis of the deposited data

Results flagged for a closer look

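For 2 members the log2 CPM ratio had opposite signs in different classes, each past 1.5-fold and with an interval that excluded 1. Both were picked for this out of all members and classes. Mrpl19, a large subunit protein, was at -0.82 in macrophage-like cells (941 control and 21 explosion UMIs) and at 1.84 in monocyte-like cells (6 and 19 UMIs). In monocyte-like cells Mrpl19 had 3.30 CPM in the control and passed the limit of 10 expected UMIs only through its explosion level. Its ratio there is therefore no support for a difference. Mrpl3, close to the peptidyl transferase centre, was at -0.74 in monocyte-like cells (62 and 31 UMIs) and at 0.77 in secretory-like cells (568 and 25 UMIs). The difference between classes was not tested for either. Relative to the class's median gene Mrpl3 in secretory-like cells came to -0.75.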

How the results depend on the processing

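No paired analysis was possible because each group has 1 library. All 62 summed log2 ratios under other settings were negative, from -1.94 to -0.36, and of the values that answer a comparison 55 stayed within counting error or 1.5 times and 39 moved. Over all kept cells the members together were at -1.26 without abundant genes in the totals, -1.92 relative to the median gene, -0.81 with at least 500 UMIs per cell and -1.07 with each cell weighted equally. Counts of lower and higher members became 43 and 1 without abundant genes (10.1% and 38.1% of all genes), 65 and 0 relative to the median gene (20.9% and 20.1%), and 44 and 6 at 1.5-fold (10.4% and 65.5%). Without abundant genes the class values were -1.05 in macrophage-like, -1.35 in T-like, -1.30 in monocyte-like, -1.30 in mesothelial-like, -1.28 in B-like, -1.10 in secretory-like, -0.85 in NK-like and -1.42 in ciliated-like cells. Relative to the median gene they were -1.57, -1.66, -1.57, -1.71, -1.52, -1.89, -1.11 and -1.94 in the same order. With at least 500 UMIs per cell, T-like cells were at -0.83, monocyte-like cells at -1.004 and B-like cells, with 68 explosion cells left, at -0.64. With doublets kept, T-like cells were at -1.10, monocyte-like at -1.23, B-like at -1.14 and secretory-like at -0.52. With each cell weighted equally, secretory-like cells were at -0.44 and ciliated-like cells at -1.24. With Mrps18a and Mrps30 in the large subunit and Mrps36 in neither, the ratio of large to small was 1.97 in the control and 2.12 in the explosion library. Without abundant genes the highest class exceeded the lowest by 1.33 and 1.43 times. At 30 expected UMIs fewer members could be compared, and those lower were 15 of 28 in T-like (10.2% of all genes), 1 of 2 in B-like (13.6%), 2 of 8 in NK-like (10.2%), 2 of 4 in ciliated-like (15.6%) and 3 of 25 in secretory-like cells (3.98%). With at least 500 UMIs per cell 0 members could be compared in B-like cells. Of the class counts of lower members 58 of 79 stayed within 1.5 times and 21 moved, and of the higher counts 44 stayed and 35 moved. The cause of these shifts was not tested. The explosion library held 9017416 UMIs against 139486248, and members under 10 expected UMIs could not be compared there.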
